A study of Mus musculus with 6 samples.

Results

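Keratins are the intermediate filament proteins of epithelial cells, and 10 of their genes were compared here between MPC, a mouse gastric adenocarcinoma line, and MPC-PTX, its paclitaxel (PTX)-resistant derivative. They were grouped by the epithelium they mark. Krt7, Krt8, Krt18, Krt19 and Krt20 were taken as keratins of simple epithelium, and Krt5, Krt14, Krt15 and Krt17 as keratins of basal or stressed epithelium. Krt23 was listed with the basal and stress keratins, although it is also found in glandular epithelium and tumours. They are 10 of the 53 keratin genes among the 21959 genes of the count table. Both lines were maintained in RPMI medium and carry the genotype CDH1-/-;Trp53-/-, so a deletion of both genes is shared by the control and the resistant cells. The paper, which calls the lines MTC and MTC-R, started from gastric organoids of a C57BL/6 J mouse with floxed alleles of both genes and Mist1-CreER, a tamoxifen-inducible recombinase driven from a gene active in gastric chief cells. The recombined organoids were grown as a subcutaneous tumour in a BALB/c nude mouse, and MPC was cultured from that tumour. MPC-PTX had passed over 30 cycles of PTX, a microtubule-stabilizing drug, whereas MPC was the untreated control. Both lines went through monoclonal selection, so each stands for 1 clone, and a difference between them cannot be told apart from a difference between clones.

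RNA was sequenced as 3 libraries per line, all of batch 1. Total counts ranged from 16574580 to 23148182 per library. Nothing states whether the 3 replicates were separate cultures, so that p-values measure only the spread between these libraries, which may be technical. MPC replicate 3 stood apart from its group, with a Spearman's rho of -0.61 between its deviation from the MPC mean and the GC content of 11776 genes. For MPC replicates 1 and 2 the rho was 0.50 and 0.37. The MPC libraries were also more spread than the MPC-PTX libraries. The SD of the deviations over genes was 0.21, 0.13 and 0.25 in MPC and 0.087, 0.079 and 0.089 in MPC-PTX. Cdh1 had 2217 to 3068 counts per library and Trp53 63 to 142, but counts summed over whole genes do not check the deletions. Of 16 gastric gland genes in the table, Tff1, Tff2, Gkn2 and Pgc, which encode secreted mucosal proteins and a pepsinogen, were at 0 in every library, and the parietal cell pump genes Atp4a and Atp4b had at most 6 counts.

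Keratin filaments are built from pairs of 1 type I and 1 type II protein, so the level of a keratin is usually read against its partners. In simple, single-layered epithelia such as the gastric mucosa, the type II keratins Krt8 and Krt7 pair with the type I keratins Krt18 and Krt19, and Krt20 is added in surface cells of the stomach and intestine. The basal layer of stratified epithelia, including the mouse forestomach, uses Krt5 with Krt14 and Krt15, whereas Krt17, Krt16 and Krt6a are induced in hair follicles and in wounded or stressed epithelium. In the mouse nearly all type I genes lie in a cluster on chromosome 11 and all type II genes in a cluster on chromosome 15, where Krt18 is the type I exception.

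The keratin genes share sequence, which bears on how firmly reads can be assigned to each of them. Of the 50-base runs of the Krt14 transcript, 14.4% also occur in other genes, 11.4% in Krt16 and 3.34% in Krt17. The longest run that the coding sequences of Krt14 and Krt16 share is 134 bases long and lies in exon 1 of both genes, at chr11:100207017-100207150 and chr11:100248476-100248609 of GRCm38 on the minus strand. It is shown because Krt14 is the listed keratin that was higher in MPC-PTX, and a read inside it fits either gene.
Krt14 and Krt16 shared run: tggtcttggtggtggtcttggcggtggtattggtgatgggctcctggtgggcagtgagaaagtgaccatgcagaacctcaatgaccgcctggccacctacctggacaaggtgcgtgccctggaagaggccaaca
The Krt8 transcript shares 26.9% of its runs with the pseudogene Krt8-ps, Krt5 shares 8.52% with other genes, and the other listed keratins share at most 3.99%, with none for Krt7, Krt19, Krt20 and Krt23. Exons of Krt7, Krt8 and Krt5 overlap annotated genes on the opposite strand (Gm671, Gm36026 and Gm44323), and the use of strand in counting is not given in the sources used here. None of these 3 genes has a row in the count table.

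RefSeq promoter windows, the 250 bases before a gene's start in GRCm38.p6, were on hand for 7 of the 10 listed keratins, and in 6 of them the window ended at the start that RefSeq gives the gene (Krt7, Krt8, Krt18, Krt20, Krt5 and Krt23). GENCODE, which gives the gene positions printed with the values, can place the start elsewhere: the Krt7 window lies inside the GENCODE gene, and those of Krt8, Krt18 and Krt23 run partly into it. The windows of Krt20, Krt5 and Krt23 are shown because they hold a TATA-like run at nearly the same distance from the RefSeq start. The RNA of these genes differed widely. It was abundant and overlapping between the lines for Krt20, at the limit of detection in both for Krt5, and lower in MPC-PTX for Krt23. Each window is written 5′ to 3′ on the minus strand, with ATAAAA and, for Krt20, the overlapping TATAAA in capitals.
Krt20 promoter, chr11:99438154-99438403: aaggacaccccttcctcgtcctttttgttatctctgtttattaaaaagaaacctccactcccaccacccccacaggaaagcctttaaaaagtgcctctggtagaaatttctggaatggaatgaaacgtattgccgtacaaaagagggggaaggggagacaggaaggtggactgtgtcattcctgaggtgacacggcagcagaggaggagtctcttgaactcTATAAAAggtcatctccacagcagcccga
Krt5 promoter, chr15:101712906-101713155: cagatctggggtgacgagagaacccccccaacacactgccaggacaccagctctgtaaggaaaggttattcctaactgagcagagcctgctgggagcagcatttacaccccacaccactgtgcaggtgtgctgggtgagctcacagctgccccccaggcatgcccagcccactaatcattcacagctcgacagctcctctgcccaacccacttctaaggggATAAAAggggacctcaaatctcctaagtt
Krt23 promoter, chr11:99493121-99493370: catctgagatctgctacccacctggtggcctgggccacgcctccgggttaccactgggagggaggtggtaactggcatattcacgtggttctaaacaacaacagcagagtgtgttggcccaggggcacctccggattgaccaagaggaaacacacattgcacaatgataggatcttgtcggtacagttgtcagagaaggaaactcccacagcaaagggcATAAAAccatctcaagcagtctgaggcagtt
The run ATAAAA starts 28 bases before the RefSeq start in Krt20, 29 in Krt5 and 31 in Krt23. GENCODE starts these genes at 99438150, 101712898 and 99493137, and the distances from those starts are less alike. The run occurs on either strand in 17.0% of 32851 RefSeq windows of this length. It was added to the search after the windows had been read. The TATA box TATAAA, present in 12.4% of windows, was found among the 6 in Krt20 alone. The Krt7 window (chr15:101412153-101412402, plus strand) holds 4 GC boxes (GGGCGG, in 32.7% of windows), 1 ATAAAA run, 7 bases before the RefSeq start, and 2 matches to the AP-2 motif GCCNNNGGC (in 13.7%), and the Krt18 window holds 1 AP-2 match. No AP-1 motif TGANTCA, present in 6.75% of windows, was found in any of the 6, and none of the 5 motifs was found in the Krt8 window. Both strands were searched throughout, and a match describes letters only.

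Simple keratins were by far the more abundant class in both lines, and 4 of the 5 were lower in MPC-PTX. Expression is given as CPM, counts set to a common depth with TMM, and calls use the quasi-likelihood test of edgeR, adjusted by the Benjamini-Hochberg method over the 11795 genes kept by a filter on low counts. The SE given with a log2 fold change is its standard error. Of the 10 listed keratins 8 were tested, 1 was higher in MPC-PTX and 6 were lower at an adjusted p below 0.05. Among all tested genes 29.7% were called, 14.1% higher and 15.6% lower. The study's methods used DESeq and called a gene at an unadjusted p below 0.05 with a log2 fold change beyond 1 in either direction. Applied to the edgeR fit, this rule gave 4 changed listed keratins, against 8.11% of all tested genes. Krt14 was the higher one, against 3.77% of genes, and Krt8, Krt15 and Krt23 were lower, against 4.34%. Krt8 lay near the limit of this rule, at a log2 fold change of -0.98 with library size alone and -0.96 without MPC replicate 2. Krt19 passed it under other settings, among them DESeq2, where 5 listed keratins changed. The groups did not overlap in CPM for 7 of the 8, against 46.9% of all tested genes. The median log2 fold change was -0.82 over the simple keratins and -2.27 over the 3 tested basal and stress keratins, against 0.04 over all tested genes. The value of -2.27 is that of Krt23. In RNA from whole cultures, fewer cells expressing a gene and less RNA per cell cannot be told apart.

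**Figure D1:**
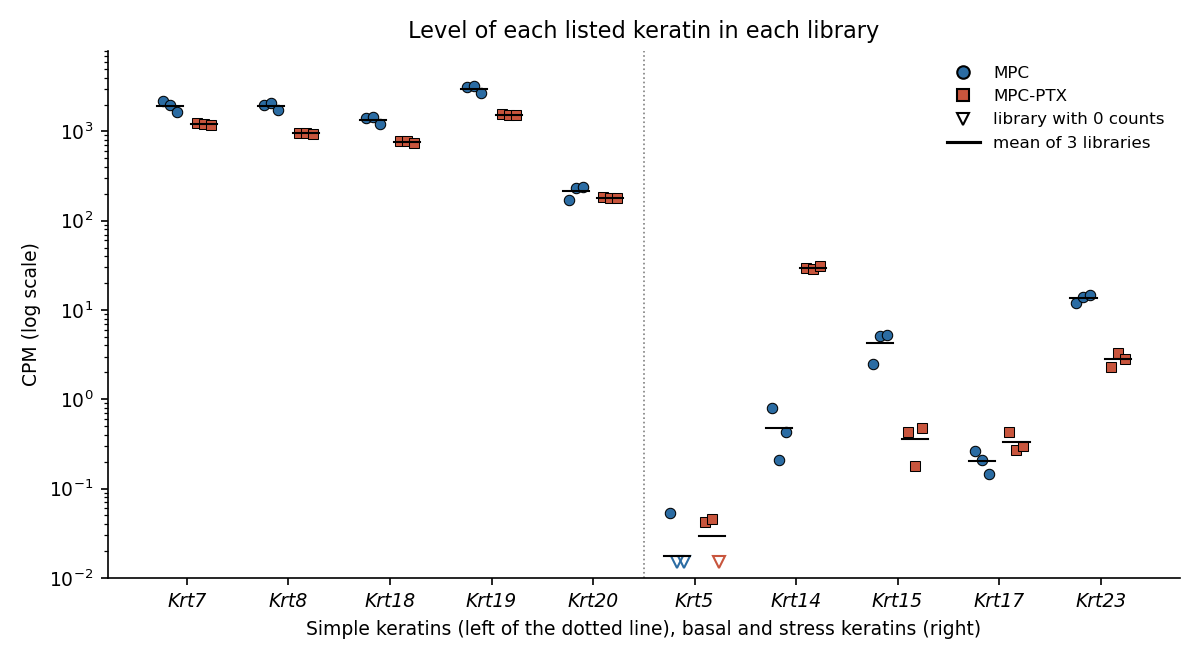
CPM on a log axis of the 10 listed keratins in the 3 MPC libraries (blue circles) and the 3 MPC-PTX libraries (red squares), with a line at each mean and open triangles for libraries with 0 counts. Krt7, Krt8, Krt18 and Krt19 sit at 738 CPM or more in every library and lower in MPC-PTX, whereas Krt14 moves from under 1 CPM to about 30.

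Krt8, the main type II keratin of simple epithelium (chromosome 15 of GRCm38, 101996698 to 102004482), was at 1965, 2095 and 1745 CPM in the MPC libraries and at 953, 971 and 934 in the MPC-PTX libraries. All 3 MPC-PTX libraries lay far below the lowest MPC library. The means were 1935 ± 177 and 953 ± 18.9 CPM (SD, n = 3 each), and the log2 fold change was -1.02 (SE 0.08, adjusted p = 0.000179). Krt18, its type I partner (chromosome 15, 102028180 to 102032027), was at 1429, 1438 and 1202 CPM in MPC and at 789, 773 and 738 in MPC-PTX. The lines were again fully apart, with a log2 fold change of -0.82 (SE 0.09, adjusted p = 0.000574).
The partners did not fall by the same measure. Per kb of transcript, the ratio of Krt8 to Krt18 was 1.01, 1.07 and 1.07 in MPC and 0.886, 0.923 and 0.928 in MPC-PTX, lower in every MPC-PTX library. Whether the ratio crosses equal levels depends on the length used, since per kb of coding sequence Krt8 stayed above Krt18 in both lines, at 1316 against 1069 CPM in MPC and 648 against 604 in MPC-PTX. The log2 ratio of their counts differed by -0.20 between the lines, with an exact two-sided permutation p = 0.1, which is the smallest that 3 libraries against 3 can give (adjusted p = 0.1 over the 2 ratios tested in this way). The 2 ratios were chosen after their values were seen, so these p-values add no support.

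Krt19, a type I keratin of simple ductal and glandular epithelium (chromosome 11, 100140810 to 100148665), had the highest level of all keratins. It was at 3141, 3195 and 2725 CPM in MPC and at 1559.7, 1525 and 1530.4 in MPC-PTX, so that every MPC-PTX library was near the same value. The log2 fold change was -0.97 (SE 0.08, adjusted p = 0.000197), 1.96-fold lower. Krt7, the type II keratin of ductal epithelium (chromosome 15, 101411043 to 101430313), was at 2172, 1959.7 and 1655 CPM in MPC and at 1239, 1210.3 and 1179 in MPC-PTX. Its MPC libraries were the most spread of the 4 abundant genes, and the log2 fold change was -0.67 (SE 0.10, adjusted p = 0.00305).
Krt20, the keratin of gastric and intestinal surface cells (chromosome 11, 99428403 to 99438150), was the exception. It had 171, 229.7 and 239 CPM in MPC and 184, 181 and 178 in MPC-PTX, and the low MPC replicate 1 made the groups overlap. The log2 fold change was -0.24 (SE 0.12, adjusted p = 0.191), and without MPC replicate 1 it was -0.37 with an adjusted p of 0.00221. Krt20 took 1.93, 2.58 and 3.16% of the CPM of the 5 simple keratins in MPC and 3.90, 3.89 and 3.90% in MPC-PTX. The log2 ratio of Krt20 to Krt19 was 0.75 higher in MPC-PTX, with an exact two-sided permutation p = 0.1 (adjusted p = 0.1), again the smallest possible. This ratio too was chosen after its values were seen.

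Ranked by CPM per kb of transcript, which makes genes comparable, the order of the simple keratins in MPC was Krt19 at 1916 ± 163, Krt8 at 988 ± 90.2, Krt18 at 944 ± 93.2, Krt7 at 471 ± 63.5 and Krt20 at 111 ± 19.1 (SD, n = 3 each). In MPC-PTX it was Krt19 at 976 ± 11.9, Krt18 at 533 ± 18.2, Krt8 at 487 ± 9.64, Krt7 at 295 ± 7.37 and Krt20 at 94.0 ± 1.75 (SD, n = 3 each). The neighbours Krt8 and Krt18 lay within each other's spread in MPC, and the other neighbours in both orders were further apart than their spread. These orders depend on the length used, most of all for Krt7, whose GENCODE transcript is 4094 bases long and its coding part 1371. Per kb of coding sequence Krt7 reached 1407 CPM in MPC and 882 in MPC-PTX, above Krt8 in both lines, and Krt8 was above Krt18 in MPC-PTX as well.
Together, all keratins held 0.885, 0.909 and 0.766% of the counts in MPC and 0.499, 0.494 and 0.484% in MPC-PTX. The total was lower in every MPC-PTX library, while the balance of the types moved little. Type I keratins summed to 1.94, 1.99 and 2.03 times the type II keratins per kb of transcript in MPC and to 1.99, 1.94 and 1.99 times in MPC-PTX, and these ranges overlap. Per kb of coding sequence, the ratio was 1.28, 1.35 and 1.38 in MPC and 1.27, 1.25 and 1.27 in MPC-PTX, which do not.

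**Figure D2:**
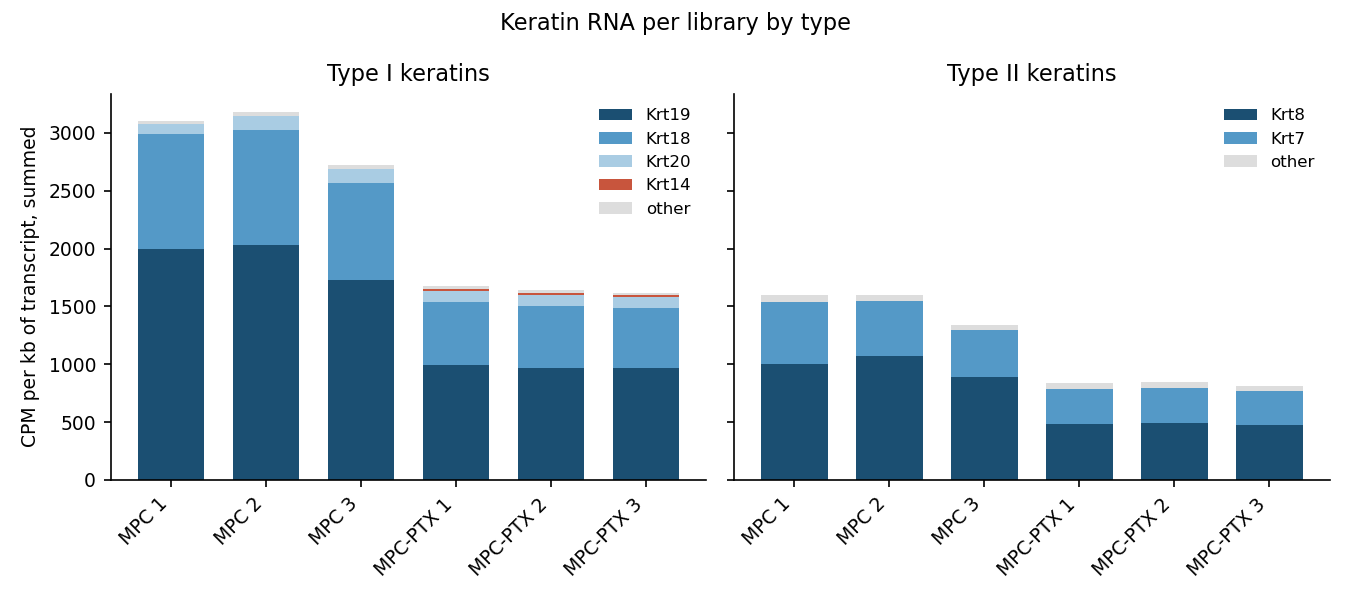
Summed CPM per kb of transcript of the type I keratins (left) and type II keratins (right) in each library, with coloured segments for the leading genes and grey for the rest. Both totals fall in MPC-PTX, from 3003 to 1643 on average for type I and from 1514 to 833 for type II, and the red Krt14 segment is visible only as a thin band in MPC-PTX.

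The basal and stress keratins were low in both lines and did not move as a class. Krt14, the type I keratin of basal cells (chromosome 11, 100203162 to 100207548), had 15, 4 and 9 counts in MPC and 690, 641 and 523 in MPC-PTX. At 0.797, 0.206 and 0.432 CPM against 29.5, 28.9 and 31.1 CPM, it was low in every MPC library and at nearly the same level in every MPC-PTX library. The mean rose 62.3-fold, a log2 fold change of 5.95 (SE 0.27, adjusted p = 2.22e-05). Over the 12 alternative settings in which it was tested, the log2 fold change lay from 5.60 to 6.50. At least 10 counts in every library, the thirteenth setting, removed it.
Krt14 remained a minor type I keratin even so. Per kb of transcript it made up 0.015, 0.004 and 0.009% of the type I total in MPC and 1.04, 1.04 and 1.13% in MPC-PTX. Krt16, the gene it shares most sequence with, had 162, 175 and 127 counts in MPC-PTX, fewer than Krt14 in each library.

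Krt5, the type II partner of Krt14 in basal cells (chromosome 15, 101707070 to 101712898), was not detected beyond single reads. It had 1, 0 and 0 counts in MPC and 1, 1 and 0 in MPC-PTX, which is 1 of 59845545 counts and 2 of 61630084. The exact Poisson 95% intervals reach 5.57 and 7.22 counts and cover counting error only. Krt5 was removed by the filter on low counts, and a difference was not detectable at this depth. Per kb of transcript Krt14 was at 17.6 ± 0.663 CPM in MPC-PTX and Krt5 at 0.0133 ± 0.0115 (SD, n = 3 each), so the usual partner of the basal type I keratin was at the limit of detection while the type II keratins Krt8 and Krt7 were at 487 and 295.

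Krt15, another type I keratin of basal cells (chromosome 11, 100131758 to 100135928), moved the opposite way to Krt14. It had 47, 100 and 108 counts in MPC and 10, 4 and 8 in MPC-PTX, with MPC replicate 1 at about 2.50 CPM and the others above 5 CPM. The log2 fold change was -3.58 (SE 0.44, adjusted p = 0.00115), from 4.28 ± 1.54 to 0.361 ± 0.158 CPM (SD, n = 3 each). Krt23, a type I keratin also found in glandular epithelium and tumours (chromosome 11, 99477974 to 99493137), was at 12.1, 14.1 and 14.8 CPM in MPC and at 2.31, 3.34 and 2.85 in MPC-PTX. The lines were far apart, with a log2 fold change of -2.27 (SE 0.17, adjusted p = 0.000128). Krt17, the stress keratin (chromosome 11, 100256217 to 100261029), had 5, 4 and 3 counts in MPC and 10, 6 and 5 in MPC-PTX and was not tested. Without the filter its log2 fold change was 0.69 (SE 0.55, adjusted p = 0.429), a difference not detectable at this depth.

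The class therefore changed in makeup more than in amount. Summed per kb of transcript, the 5 genes were at 9.84, 12.3 and 12.8 CPM in MPC and at 19.4, 19.5 and 20.6 in MPC-PTX. Krt23 made up 78.3, 73.3 and 73.5% of that sum in MPC and 7.61, 10.96 and 8.85% in MPC-PTX. Krt14 went the other way, from 4.77, 0.986 and 1.99% to 89.6, 87.5 and 88.9%. The log2 ratio of summed simple to summed basal and stress keratin CPM was 9.15, 8.82 and 8.53 in MPC and 7.18, 7.15 and 7.04 in MPC-PTX, a difference of -1.71 that is described without a test. It depends on which genes are counted as basal, and was -3.50 with Krt23 left out. Simple keratins stayed the larger class everywhere, and the listed basal and stress keratins were 0.176, 0.2204 and 0.270% of the listed keratins' CPM in MPC and 0.687, 0.697 and 0.755% in MPC-PTX.

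**Figure D3:**
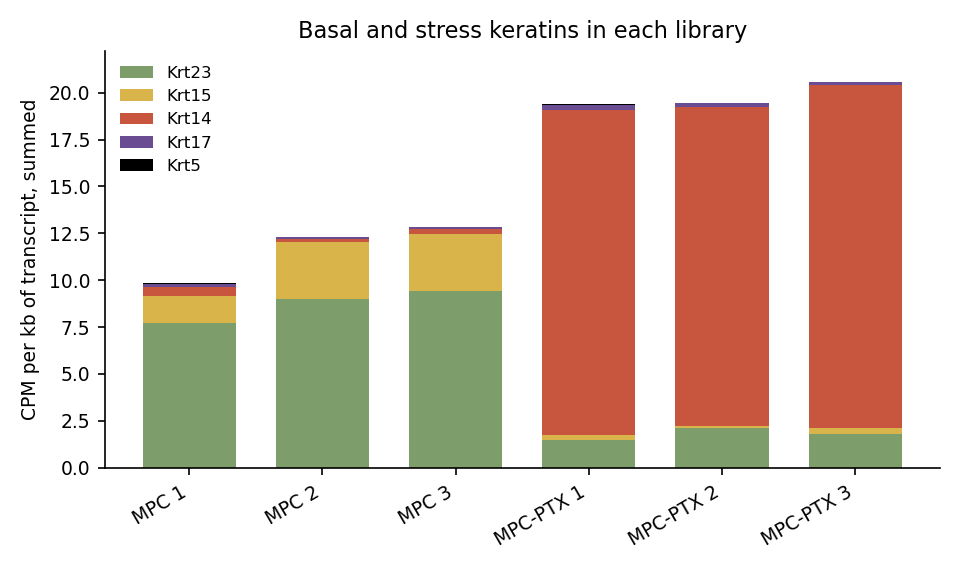
Stacked CPM per kb of transcript of the 5 basal and stress keratins in each of the 6 libraries. Krt23 (green) and Krt15 (yellow) fill the MPC bars and Krt14 (red) the MPC-PTX bars, whose height is 19.4 to 20.6 against 9.84 to 12.8 in MPC.

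Among the other 43 keratin genes, 12 were tested. Of these 12, 2 were higher in MPC-PTX, 3 were lower and 7 were not called, against 14.1% higher and 15.6% lower among all tested genes. The stress keratins Krt6a (type II) and Krt16 (type I) were the higher ones. Krt6a had 18, 15 and 17 counts in MPC and 47, 78 and 44 in MPC-PTX, a log2 fold change of 1.67 (SE 0.28, adjusted p = 0.00451), but 43.6% of its 50-base runs also occur in Krt6b. Krt16 had 84, 63 and 86 counts in MPC and 162, 175 and 127 in MPC-PTX, a log2 fold change of 0.91 (SE 0.15, adjusted p = 0.00456), but 37.6% of its runs occur in other genes (Gm11597, Krt14 and Krt17), 12.4% in Krt14. What part of the Krt16 difference came from reads of Krt14 was not tested.
The partners Krt4 (type II) and Krt13 (type I), which mark the upper layers of internal stratified epithelium, were lower. Krt4 went from 546, 449 and 403 counts to 147, 147 and 83, a log2 fold change of -1.99 (SE 0.18, adjusted p = 0.000341). Krt13 had a log2 fold change of -0.47 (adjusted p = 0.0351), which was above 0.05 with library size alone and when MPC replicate 2 or any 1 MPC-PTX library was left out, up to 0.115. Krt84, a type II keratin of hard epithelium, had 17, 20 and 13 counts in MPC and 0, 2 and 1 in MPC-PTX, a ratio of 17.2 per total count with a 95% counting interval of 5.55 to 86.0. The interval pools the libraries of a line, and the log2 fold change of -3.98 (adjusted p = 0.00363) was -3.36 without MPC-PTX replicate 1 and -4.77 without MPC-PTX replicate 2.
Krt80, a type II keratin with the highest level per kb outside the list, was at 96.6 ± 16.7 CPM in MPC and 113.5 ± 1.12 in MPC-PTX (SD, n = 3 each) and was not called (log2 fold change 0.23, adjusted p = 0.183). Krt10, the type I keratin of cells above the basal layer of skin, had a log2 fold change of 0.37 (adjusted p = 0.119). Krt36, Krt39, Krt78, Krt79 and Krt87 were not called either, with log2 fold changes from -0.53 to 0.48, and Krt12 had 1, 3 and 3 counts in MPC and 8, 13 and 7 in MPC-PTX and was not tested. The other 30 genes had under 10 counts in every library, and 7 of these were at 0 throughout.
Neighbouring genes went different ways. On chromosome 11, Krt15 and Krt19 were lower and lie beside each other, whereas Krt14 and Krt16, the next tested genes along the cluster, were higher. On chromosome 15, Krt7, Krt84, Krt4, Krt8 and Krt18 were lower, Krt6a between them was higher, and Krt79 and Krt78 had log2 fold changes of -0.01 and -0.06.

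**Figure D4:**
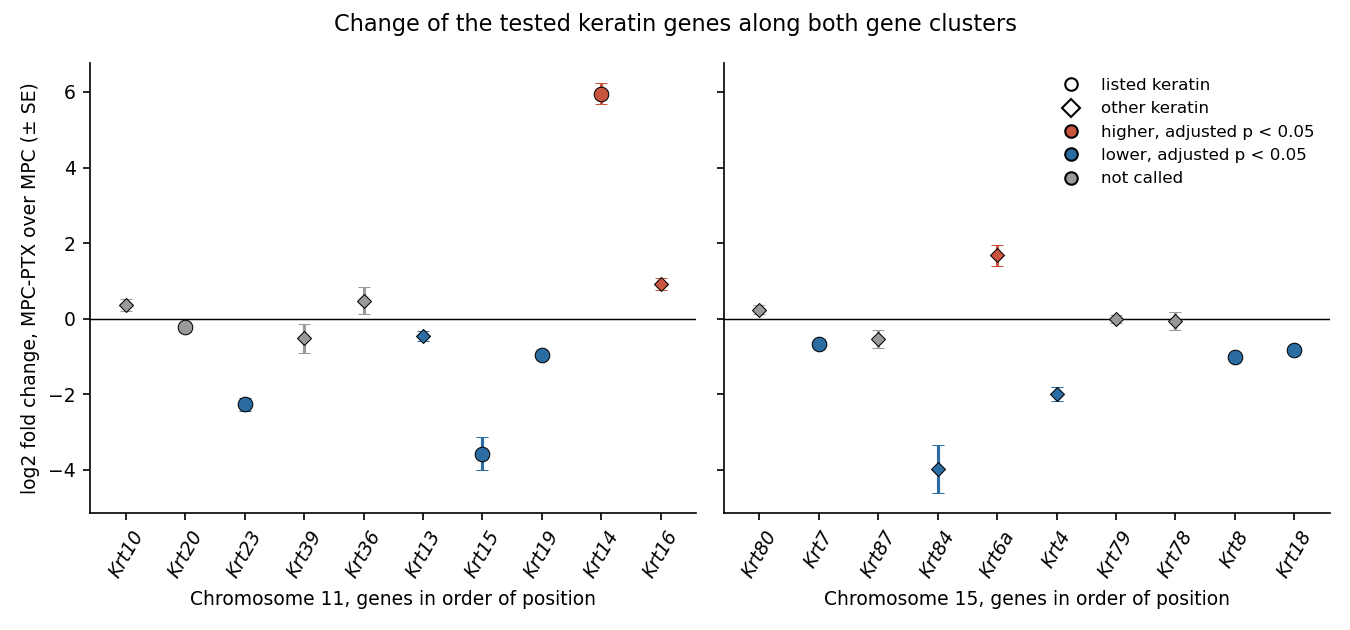
Log2 fold change of MPC-PTX over MPC, with its SE, for the 20 tested keratin genes in order of position on chromosomes 11 (left) and 15 (right). Large circles are listed keratins and small diamonds the others, red for higher, blue for lower and grey for not called at an adjusted p of 0.05, and Krt14 at 5.95 stands beside Krt19 at -0.97.

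The genes around the keratins were read from lists of filament partners, anchors and cell layers. Their counts stand against 14.1% of all tested genes called higher and 15.6% called lower. Of 16 other intermediate filament genes 7 were tested, 2 were higher and 1 was lower, with a median log2 fold change of 0.06. Vim, the filament gene of mesenchymal cells, had 6, 10 and 11 counts in MPC and 94, 85 and 69 in MPC-PTX, all MPC-PTX libraries above all MPC libraries. Its log2 fold change was 3.11 (SE 0.23, adjusted p = 0.000125), reaching 3.98 ± 0.137 CPM (SD, n = 3). Nes, encoding nestin of progenitor cells, had 4, 6 and 3 counts in MPC and 20, 29 and 15 in MPC-PTX (log2 fold change 2.18, adjusted p = 0.0064).
Desmosomes, the junctions to which keratins attach, and plakins, the linkers, gave 12 tested genes of 16, with 6 lower, 0 higher and 6 not called, and a median of -0.37. The lower genes were Dsc2, Pkp2, Eppk1, Evpl, Jup and Ppl. Dsc2, a desmosomal cadherin gene, went from 37.9 ± 7.998 to 7.09 ± 0.924 CPM (SD, n = 3 each), and the log2 fold change was -2.42 (adjusted p = 0.000153). Of 6 tested hemidesmosome genes among 7, which anchor basal cells to their matrix, 3 were lower and 3 were not called, and the median was also -0.37. Lama3, a laminin chain gene, was among the lower ones with a log2 fold change of -0.81 (adjusted p = 0.00328).

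Genes listed for basal cell identity, among them the epidermal barrier factor Grhl3, were called in both directions. Of 16 genes 13 were tested, 4 were higher, 3 were lower and 6 were not called, with a median of -0.09. Among all tested genes 14.1% were called higher and 15.6% lower, and the squamous and gastric counts below stand against the same shares. Trp63, the transcription factor of basal epithelial cells, had 14, 8 and 15 counts in MPC and 53, 56 and 30 in MPC-PTX. The lines did not overlap, and its log2 fold change was 1.81 (SE 0.29, adjusted p = 0.00358) at a level of 2.19 ± 0.377 CPM in MPC-PTX (SD, n = 3). Grhl3, an epidermal barrier transcription factor, rose from 20, 19 and 15 counts to 188, 146 and 129 (log2 fold change 3.01, adjusted p = 7.08e-05), and Ly6d, a surface protein of keratinocytes, had a log2 fold change of 1.25 (adjusted p = 0.000104). Sfn, which encodes the epithelial protein stratifin, had a log2 fold change of -1.11 (adjusted p = 0.000258), as against -1.03 for the cadherin gene Fat2 (adjusted p = 0.0285). Tfap2c and Ngfr were at 0 in every library.
Squamous differentiation genes, which mark the layers above the basal layer, were lower more often than higher. Of 19 genes 12 were tested, with a median of -0.33. Among these, 6 were lower, 2 were higher (the keratins Krt6a and Krt16) and 4 were not called. The lower ones include the keratins Krt4 and Krt13, already described above. Ivl, encoding involucrin of the cornified envelope, went from 100, 176 and 232 counts to 3, 7 and 4, a log2 fold change of -5.21 (SE 0.43, adjusted p = 0.0002). Sprr1a, another envelope gene, went from 371 ± 134 to 31.9 ± 0.858 CPM (SD, n = 3 each), and the log2 fold change was -3.54 (adjusted p = 0.000275). Sprr3, with 35, 15 and 12 counts against 4, 3 and 3, had a log2 fold change of -2.68 (adjusted p = 0.016).
Of 6 tested gastric gland genes, 5 were lower and Cdh1 was not called. Anxa10, Ctse and Vil1, genes of gastric surface and brush-border cells, had log2 fold changes of -8.62, -7.54 and -6.84. Of the 5 lower genes, only these 3 fell by more than 1 on the log2 scale. Epcam, a general epithelial surface gene, fell less, from 1173 ± 110 to 782 ± 10.5 CPM (SD, n = 3 each; log2 fold change -0.59, adjusted p = 0.00192).

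**Figure D5:**
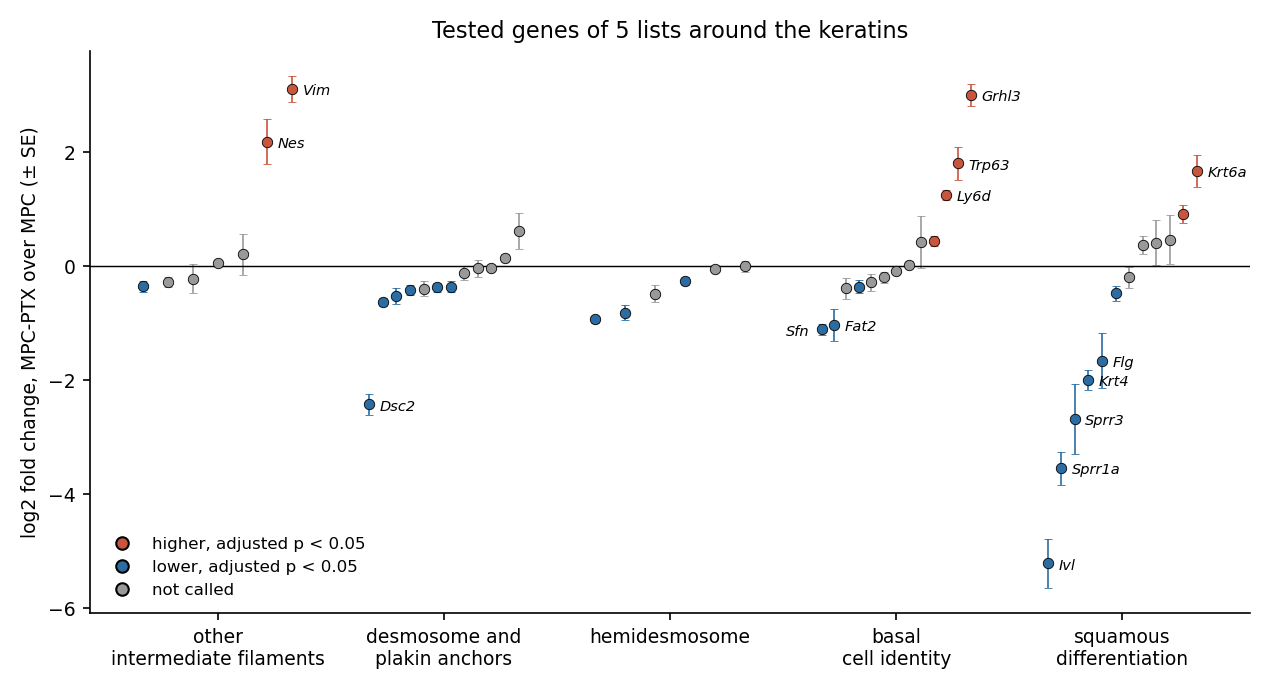
Log2 fold change of MPC-PTX over MPC, with its SE, for the tested genes of 5 lists, red for higher, blue for lower and grey for not called at an adjusted p of 0.05. Names are given past an absolute log2 fold change of 1, and the squamous list reaches from Ivl at -5.21 to Krt6a at 1.67.

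Markers of other cells that could carry keratins or Vim were low beside the abundant simple keratins, apart from 1 gene, but not all were low beside Vim. The summed level of 8 fibroblast markers was 9.83 to 10.9 CPM in MPC and 8.63 to 9.92 in MPC-PTX. Vim, at a mean of 3.98 CPM in MPC-PTX, was below this sum. Of the 2 tested fibroblast markers Col1a1 was lower (log2 fold change -0.80, adjusted p = 0.00389) and the other was not called. The median log2 fold change of these 2 was -0.22, so they did not fall together. Among the fibroblast markers not tested, Thy1, Lum and Pdgfrb had at most 4 counts in any library. The sum of 6 leukocyte markers was 11.003 to 12.6 CPM in MPC and 9.39 to 10.5 in MPC-PTX, nearly all of it Cd68, with Cd3e at 1 count in all. Endothelial markers, 4 genes, summed to 2.58 to 2.98 and 2.21 to 2.79 CPM, and neither list had a gene called. Mesothelial cells also express simple keratins, and the 5 mesothelial markers summed to 460 to 517 CPM in MPC and to 296 to 315 in MPC-PTX. Nearly all of this was Msln, which gastric tumours can also express (log2 fold change -0.67, adjusted p = 0.000429), whereas Wt1, Upk1b and Lrrn4 had at most 7 counts in any library and Upk3b at most 16. The part of such cells in the differences of the keratins and of Vim was not tested.

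The genes whose pattern over the 6 libraries was most like that of a listed keratin were sought for Krt14 and Krt23, the keratins with the largest and the smallest log2 fold change among those called with at least 5 CPM in the higher line. Likeness was the root mean square difference of log2 CPM, each gene centred on its own mean, among all tested genes. Nearest to Krt14 were Sod3, encoding an extracellular superoxide dismutase, at 0.43, the serine protease gene Prss12 at 0.59 and the carboxylesterase gene Ces1g at 0.63. Sod3 had 16, 10 and 7 counts in MPC and 643, 620 and 461 in MPC-PTX. Nearest to Krt23 were Rtp4 at 0.11, 9130230L23Rik at 0.12 and the cytochrome P450 gene Cyp3a13 at 0.14. Rtp4 went from 143, 181 and 198 counts to 40, 55 and 36. With only 2 lines, such a pattern is little more than a shared difference between them.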

How the data were processed

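Poly-A RNA of 3 MPC and 3 MPC-PTX libraries was sequenced. After filtering with fastp 0.22.0 and mapping with HISAT2, the authors deposited the raw read count of each gene per library, without normalization or pooling. The genome release, annotation, counting tool, use of strand and treatment of multiply mapping reads are not given in the sources used here. The tables of the 6 samples held the same values as the series table.

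Counts were scaled with TMM, filtered with filterByExpr (minimum count 10) and tested with edgeR 4.0.16 (robust glmQLFit, glmQLFTest, R 4.3.3) over 11795 genes, with Benjamini-Hochberg adjustment. All adjusted p-values come from this fit unless a setting is named. The standard error is the log2 fold change divided by the square root of the F statistic, and log2 CPM used a prior count of 2. The correlations of deviations between replicates instead used log2 of CPM with a fixed offset. The 2 ratios of keratin pairs, chosen after their values were seen, were tested by exact permutation (scipy 1.17.1). Ensembl identifiers gave positions and lengths in GENCODE M21 (GRCm38), and promoter windows came from RefSeq. On simulated counts, 100% of 200 genes set to differ by 1.5 on the log2 scale were recovered among 11711 genes, with 2.44% false calls. The simulation gave all genes a single fixed spread, held no GC-linked difference between libraries and changed no gene of low count. It therefore checks the procedure and does not give the error rate in these libraries.

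The members and lists were chosen with earlier results of these data known. Named were all listed keratins, other keratins with at least 10 counts in a library, up to 4 called genes per list whose log2 fold change was beyond 1 in either direction, and the 3 genes nearest in pattern to the listed keratins with the largest and smallest log2 fold change at 5 CPM or more. Further genes were named after their values were seen, to account for a count or a level. Some list genes are not reported here by name. Alternatives were DESeq2 1.42.0, DESeq2 size factors, library size alone, the replicate number as a block, a minimum of 10 counts in all libraries or no such filter, a loess correction (span 0.3) for GC content and transcript length, and each library left out in turn.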

Additional observations from a re-analysis of the deposited data

How the results depend on the processing

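Each library left out in turn, another normalization or test, another filter on low counts, the correction for GC content and length and the replicate block were compared. Krt7, Krt8, Krt18, Krt19, Krt15 and Krt23 stayed lower with an adjusted p below 0.05 wherever they were tested, and Krt14 higher. The number of listed keratins that were higher was 1, and 0 with at least 10 counts in every sample, since Krt14 was then not tested. By the cut-offs of the study's methods 4 listed keratins changed in the main edgeR fit. There were 5 under DESeq2 or its size factors and without MPC replicate 3, where Krt19 also passed. There were 3 with library size alone or without MPC replicate 2, where Krt8 no longer did, or with at least 10 counts in every sample. The log2 ratio of simple to basal and stress keratin CPM differed by -1.71, by -3.50 with Krt23 left out, by -1.66 per kb of transcript and by -1.86 to -1.55 with 1 library left out. Of all genes 3509 were called, with 1904 to 6247 when 1 library was left out, the highest without MPC replicate 3 and the lowest without MPC-PTX replicate 2. These fits also called 2156 genes without MPC replicate 2, 1925 without MPC-PTX replicate 1 and 1940 without MPC-PTX replicate 3, and the cause was not tested. Among genes that were not called, Krt79 (-0.01) turned to 0.026 with library size alone and ranged from -0.119 to 0.0299 with 1 library left out, above 0 without MPC replicate 1, MPC replicate 2 or MPC-PTX replicate 3. Krt78 (-0.06) ranged from -0.291 to 0.117, above 0 without MPC replicate 2 or MPC-PTX replicate 2. Krt80 was called with the correction for GC content and length (adjusted p = 0.0312 in edgeR's test) and without MPC replicate 1, and Krt87 without MPC replicate 3.

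Whether equal replicate numbers pair the samples was not settled. Correlations of deviations from the group means between same-numbered libraries were 0.28, -0.04 and 0.29. For MPC replicate 1 the other correlations were -0.06 and -0.22, and for MPC replicate 3 they were -0.36 and 0.08. MPC replicate 2 instead correlated best with MPC-PTX replicate 1 (0.24). With the replicate number as a block 3504 genes were called, and again 1 listed keratin was higher and 6 were lower. Depth limits Krt5 and Krt17, for which no difference could be seen at these counts.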
